A study of Mus musculus with 12 samples.

Results

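Brain tumours that grew in old mice given nicotinamide mononucleotide (NMN) were compared with brain tumours that grew in old mice joined to a partner animal by parabiosis. Each group held 3 RNA sequencing libraries, and the labels describe 3 mice per group. Of the 24054 rows of the deposited expression table, all genes with a normalised read count (CPM, scaled to a fixed library total) of at least 1 in at least 3 of these 6 libraries were compared, which gave 14883 genes. Among them 32 genes reached that level through the NMN libraries alone and 15 through the parabiosis libraries alone, and such genes had to differ.

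All hosts were labelled as female C57BL/6 mice aged 16 months in both groups. The tumour cells, a mouse line with the label ms7080 that the protocol text calls BC cells, had been injected into the striatum, so every library rests on a single tumour line. The NMN group received 300 mg/kg/day and the parabiosis group was joined surgically to another mouse, and the sources used here do not state that partner's age. Tumours were taken when the host showed symptoms and not at a fixed time. The labels name no sham-operated and no vehicle group. As reference, 3 untreated old tumours (16 months) and 3 untreated young tumours (2 months) of the same line, strain and labelled sex were measured. The 6 libraries compared held 19506540 to 26779406 reads each.

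NMN is a direct precursor of the coenzyme NAD, which carries electrons in metabolism and is consumed by sirtuins, PARP enzymes and CD38. In parabiosis the joined animals develop a shared circulation, so blood cells, hormones and cytokines of the partner reach the host. Type I interferons and interferon gamma are cytokines that switch on antiviral genes, guanylate-binding proteins and antigen presentation genes through interferon regulatory factors and other transcription factors. In female mammals an X chromosome is silenced in each cell by the noncoding RNA Xist, and a small set of X-linked genes escapes this silencing.

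In limma no gene separated the treatments after adjustment for all genes tested. At an adjusted p under 0.05, 0 of 14883 genes (0%) were higher with NMN and 0 (0%) were lower. The smallest adjusted p was 0.0825, shared by Wnt3 and Tspan6. Without adjustment, 704 genes (4.73%) were higher with NMN at p under 0.05 and 747 (5.02%) were lower, 1451 (9.75%) in all. In 1034 genes (6.95%) all 3 NMN libraries lay above all 3 parabiosis libraries, and in 1161 genes (7.8%) they lay below, which makes 2195 (14.7%). By sign alone, 54.2% of all genes had higher values with NMN. These shares are the background for the list counts below. On whole reads recovered from the table, edgeR called 0 genes and DESeq2 called 231, of which 72 (0.484%) were higher with NMN and 159 (1.07%) lower, 97 of these 159 on the X chromosome. Differences below are therefore given as values, on the log2(CPM + 1) scale as NMN minus parabiosis with the standard error, and a negative value means lower with NMN. This scale understates the difference of genes with low values. The p-values and standard errors in limma rest on the spread within groups over all 12 libraries, the untreated tumours included. In bulk tissue fewer cells of a type and less RNA per cell cannot be told apart.

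The libraries were unequal in their levels of brain cell marker RNA. In a principal component analysis of the 6 libraries, component 1 took up 52.9% of the variance and placed NMN library 1 and parabiosis library 3 towards the same end. Parabiosis libraries 1 and 2 lay farthest towards the other end, and Cxcl9, H2-Ab1, Cd74 and Psmb9, genes of interferon response and antigen presentation, had some of the strongest loadings in that direction. NMN library 1 and parabiosis library 3 had the highest summed levels of 18 neuronal genes, at 6949 and 5334 CPM, against 2416 to 3113 CPM in the other 4. The sum for 15 genes of myelinating oligodendrocytes was 2310 CPM in NMN library 1, 1659 CPM in parabiosis library 3 and 943 to 1421 CPM in the other 4. The sum for 16 genes of striatal projection neurons gave another order. It was 734 CPM in NMN library 3, 652 CPM in parabiosis library 3, 620 CPM in NMN library 1 and 282 to 412 CPM in the others. All 18 neuronal genes were measured in both groups. A fit with the levels of the neuronal and myelinating oligodendrocyte genes as a covariate also called 0 genes.

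The genes that separated the groups most firmly in the direction of parabiosis were all X-linked. By the rule for named genes, the 12 genes with the smallest p among those with no overlap and higher values with parabiosis included Tspan6, Eif1ax, Prps1, Hccs, Mospd2, Ssr4, Msl3, Ndufb11, Xlr4b, Maged2 and Arxes2, and all 12 lie on the X chromosome. Their mean CPM with parabiosis was 1.47 to 2.12 times that with NMN, with a median of 1.61. In 9 of the 12 genes every parabiosis library also lay above every untreated old library. Every NMN library lay below every untreated old library in 9 of the 12. The genes were picked for their gap between the treatments, and the share of such genes over all genes was not counted. These counts therefore describe the picked genes and cannot be read as particular to them. Over all X-linked genes the median difference from untreated old was 0.31 with parabiosis and 0.015 with NMN.

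Tspan6, a tetraspanin of the cell membrane (chrX:133891068-133901208, GRCm38), had 48.7, 51.6 and 50.5 CPM with NMN and 109, 107 and 104 CPM with parabiosis. The groups were far apart, with a spread of 1.49 CPM (SD, n = 3) around 50.3 CPM with NMN and of 2.57 CPM around 107 CPM with parabiosis. The log2 difference was -1.07 ± 0.14, with an adjusted p of 0.0825 in limma. Untreated old tumours had 110, 86.8 and 68.8 CPM and reached into the parabiosis range.

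Eif1ax, a translation initiation factor, had 54.1, 60.7 and 55.5 CPM with NMN and 82.2, 100.1 and 112 CPM with parabiosis. Maged2, a member of the MAGE family, had 59.1, 51.4 and 55.3 CPM with NMN and 98.5, 109 and 121 CPM with parabiosis. Prps1, which makes the phosphoribosyl donor for nucleotide synthesis, had 46.6, 49.3 and 45.9 CPM with NMN and 65.5, 74.6 and 82.6 CPM with parabiosis. All 3 genes had NMN values in a narrow band below a wider and higher parabiosis band. For Prps1 the untreated old values of 50.1, 50.3 and 48.1 CPM lay beside the NMN values. Parabiosis alone stood away from untreated old there, by 0.57 on the log2 scale against -0.06 for NMN, and both of these comparisons use the same untreated libraries.

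Several of the other X-linked genes act in the mitochondrion or the endoplasmic reticulum. Hccs, which attaches haem to cytochrome c, had a mean of 17.6 ± 0.36 CPM (SD, n = 3) with NMN and 28.2 ± 2.78 CPM with parabiosis. Ndufb11, a subunit of respiratory complex I, had 33.3 ± 0.66 against 48.8 ± 4.10 CPM. Both differed by more than the spread within either group, and the adjusted p values in limma were 0.176 for Hccs and 0.186 for Ndufb11. Ssr4, a subunit of the translocon-associated complex of the endoplasmic reticulum, had 27.5 ± 2.46 against 45.7 ± 2.21 CPM. Msl3, a chromodomain protein of the MSL chromatin complex, had 33.2 ± 3.85 against 55.3 ± 2.95 CPM. Xlr4b and Arxes2 belong to families of very similar X-linked copies, so the division of reads between copies is uncertain.

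**Figure D1:**
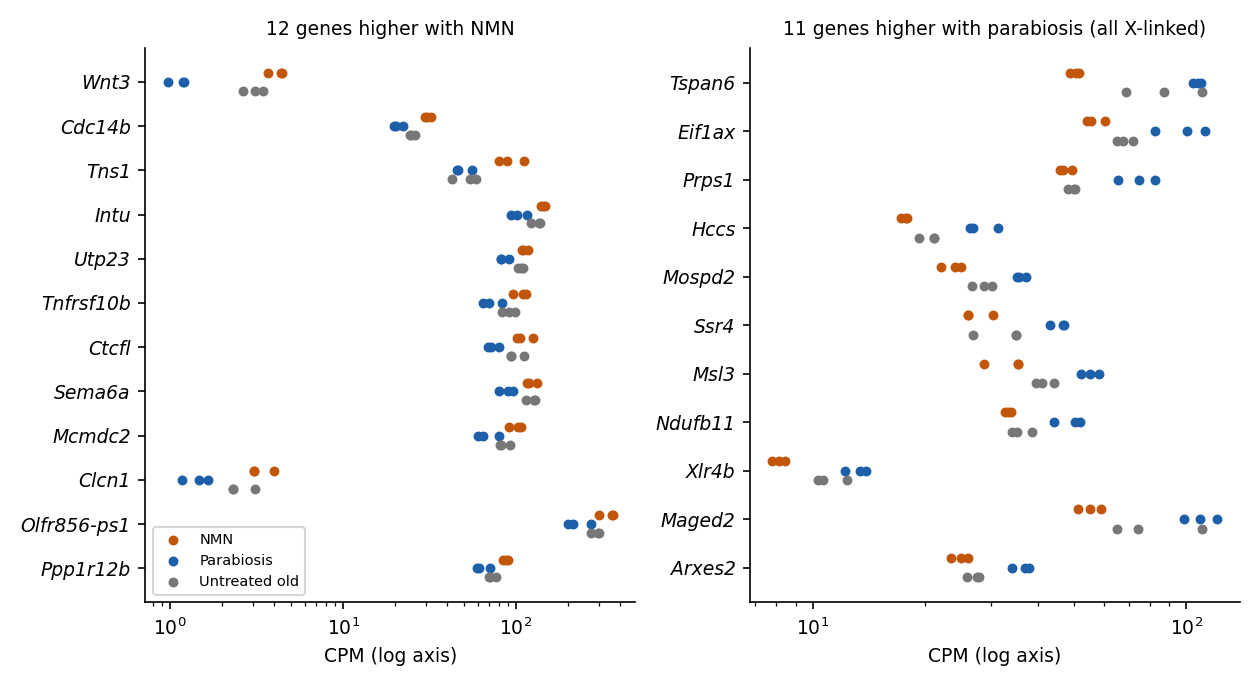
CPM on a log axis in each NMN, parabiosis and untreated old library (points) for the 12 named genes higher with NMN (left) and 11 of the 12 higher with parabiosis (right). Tspan6 had 48.7 to 51.6 CPM with NMN and 104 to 109 CPM with parabiosis, and in no gene shown do the points of these groups overlap, which the rule required.

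Grouping genes by chromosome was chosen after these values were seen, so the X chromosome is described without a test. Of the 14883 genes, 14797 could be placed on a chromosome and 539 of these are X-linked. The median difference was -0.25 for X-linked genes and 0.031 for autosomal genes, and on each of the other chromosomes the median lay between -0.042 and 0.097. With NMN 367 of the 539 X-linked genes (68.1%) had lower values. Of the 539, 194 (36.0%) were lower at an unadjusted p under 0.05 and 7 were higher, whereas the share lower on single autosomes was 1.04% to 8.39%. X-linked genes made up 3.64% of all placed genes and 26.1% of the 742 placed genes that were lower with NMN at that p. Among the 20 genes with the smallest p, 16 were X-linked and lower with NMN, and among the smallest 100 it was 47.

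The difference was spread along the chromosome and was larger in well measured genes. When the X-linked genes were cut in map order into 10 stretches of 53 or 54 genes, the median was negative in all 10, from -0.083 to -0.36. In the 283 X-linked genes with a mean of at least 20 CPM the median was -0.31, and 131 of them were lower at p under 0.05. In the 107 X-linked genes with a mean under 5 CPM the median was 0.023. Autosomal genes with at least 20 CPM had a median of 0.0095.

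**Figure D2:**
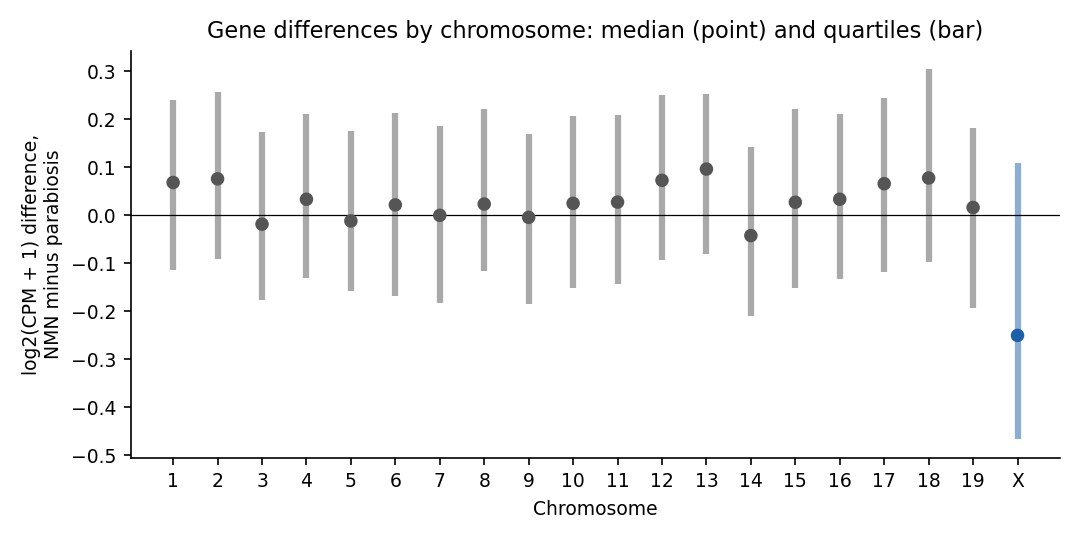
Log2(CPM + 1) difference, NMN minus parabiosis, by chromosome, with the median of its genes as a point and the quartiles as a bar. The X chromosome has a median of -0.25, and the 19 autosomes have medians between -0.042 and 0.097.

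Set library by library, the parabiosis tumours stood apart. The median log2 deviation of X-linked genes (each from its own 12-library mean), minus that of autosomal genes, was 0.16, 0.10 and 0.41 with parabiosis. With NMN it was 0.0063, -0.14 and -0.044, in untreated old tumours 0.035, -0.12 and -0.13, and in untreated young tumours -0.076, -0.14 and -0.041. All 3 parabiosis libraries lay above the 9 others, and parabiosis library 3 lay highest. Against untreated old tumours the median X-linked gene differed by 0.31 with parabiosis and by 0.015 with NMN. Against untreated old library 3 alone, the old library with Xist at 380 CPM, these medians were 0.38 and 0.078. Without parabiosis library 3 the median between the treatments was -0.16, and without parabiosis library 2 it was -0.31. The share of all CPM from X-linked genes other than Xist was 3.32%, 3.25% and 3.98% with parabiosis and 3.11%, 2.78% and 2.99% with NMN.

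Xist itself did not follow the other X-linked genes. It had 1127, 834 and 742 CPM with NMN and 516, 499 and 934 CPM with parabiosis, so the groups overlapped and 2 of the 3 parabiosis libraries were lower. Untreated old libraries had 1.88, 2.76 and 380 CPM and untreated young libraries 202, 164 and 5.33 CPM. Old libraries 1 and 2 and young library 3 therefore had Xist near 0 although all hosts are labelled female. Y-linked genes were measured in every library, with summed levels of 195, 298 and 210 CPM with NMN and 266, 338 and 120 CPM with parabiosis. The sources used here do not state the sex of the tumour line. Parabiosis library 3 had the lowest Y-linked sum, the highest X-linked deviation and a high neuronal sum, and the part of tissue content in the X-linked difference was not tested beyond the covariate. With the brain marker levels as a covariate the X-linked median was -0.28.

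**Figure D3:**
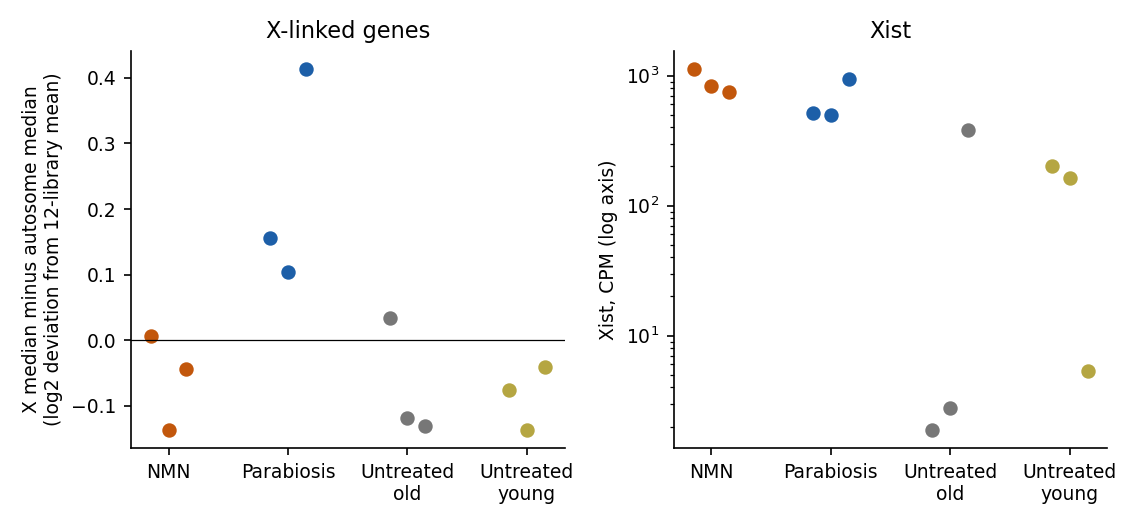
Median deviation of X-linked genes minus that of autosomal genes in each library (left, log2 scale) and Xist in CPM (right, log axis), with 3 libraries per group. The 3 parabiosis libraries lie at 0.10 to 0.41, above all others, whereas Xist spans 499 to 934 CPM there and 742 to 1127 CPM with NMN.

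Ddx3x, Eif2s3x and Kdm5c, X-linked genes that have a Y-linked partner and escape silencing in mice, gave the same order. Ddx3x, an RNA helicase, had 494, 460 and 467 CPM with NMN and 535, 571 and 564 CPM with parabiosis. Eif2s3x, a translation initiation factor subunit, had 249, 249 and 224 against 294, 314 and 334 CPM. Kdm5c, a histone demethylase, had 124, 133 and 146 against 164, 156 and 202 CPM. In these 3 genes the groups did not overlap, with differences of -0.23 ± 0.08, -0.38 ± 0.09 and -0.37 ± 0.12. Kdm6a, another histone demethylase gene of this kind, overlapped at 54.0, 59.1 and 50.2 against 54.9, 48.8 and 70.8 CPM. Their Y-linked partners Ddx3y, Eif2s3y, Kdm5d and Uty all overlapped between the groups. These genes were chosen after their values were seen.

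X-linked genes typical of brain cells did not share the order. Syp and Syn1, proteins of synaptic vesicles, had differences of 0.34 ± 0.61 and 0.23 ± 0.47. Dcx, a microtubule protein of young neurons, had 0.35 ± 0.39. All 3 overlapped between the groups. X-linked members also lay among the lower genes of other pathways. Cox7b, a subunit of cytochrome oxidase, had 54.5, 49.7 and 47.3 CPM with NMN and 73.8, 72.6 and 86.6 CPM with parabiosis. G6pdx, the entry enzyme of the pentose phosphate pathway, had 40.5, 45.8 and 45.6 against 66.1, 62.6 and 67.6 CPM.

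The 12 genes named as higher with NMN were autosomal. They were Wnt3, Cdc14b, Tns1, Intu, Utp23, Tnfrsf10b, Ctcfl, Sema6a, Mcmdc2, Clcn1, Olfr856-ps1 and Ppp1r12b, with means 1.32 to 3.73 times those with parabiosis and a median of 1.48. In 9 of the 12 genes every parabiosis library lay below every untreated old library. In 6 every NMN library lay above every untreated old library. These genes too were picked for their gap between the treatments, and the share over all genes was not counted. The same limit holds for these counts.

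Wnt3, a ligand of the beta-catenin pathway (chr11:103774175-103818021, GRCm38), had 4.46, 4.36 and 3.67 CPM with NMN and 1.195, 0.968 and 1.188 CPM with parabiosis. Its levels were low in all libraries, and the groups were far apart. The log2 difference was 1.28 ± 0.16, with an adjusted p of 0.0825 in limma. Untreated old tumours had 2.63, 3.10 and 3.46 CPM, between the groups. Against them the difference was 0.35 for NMN and -0.94 for parabiosis.

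Tns1, an adhesion protein that links integrins to actin, had 79.7, 112 and 88.9 CPM with NMN and 45.8, 46.4 and 55.6 CPM with parabiosis. The untreated old values of 58.4, 54.4 and 42.5 CPM lay with the parabiosis values. Cdc14b, a phosphatase, had 30.6, 29.8 and 32.1 CPM with NMN, 19.8, 20.2 and 22.2 CPM with parabiosis and 24.3, 24.7 and 26.1 CPM in untreated old tumours. Here untreated tumours fell between the treatments. Sema6a, a guidance molecule, had 118, 132 and 115 CPM with NMN and 89.9, 95.5 and 79.3 CPM with parabiosis, and the untreated old values of 114, 127 and 129 CPM lay with the NMN values.

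The remaining genes of this direction had differences from 0.39 ± 0.08 for Utp23, a ribosomal RNA processing factor, to 0.84 ± 0.18 for Clcn1, the chloride channel of skeletal muscle. Clcn1 had 4.00, 3.07 and 3.04 CPM with NMN and 1.47, 1.17 and 1.66 CPM with parabiosis. Tnfrsf10b, the mouse receptor of the death ligand TRAIL, had 109, 95.7 and 114 against 69.5, 64.3 and 82.8 CPM. Ctcfl, a CTCF relative normally limited to the testis, had 101, 105 and 125 against 79.7, 68.9 and 71.2 CPM. Intu, a gene of cilia and planar polarity, and Mcmdc2, a gene of meiotic recombination, differed by 0.47 ± 0.09 and 0.56 ± 0.12. Ppp1r12b, a subunit of myosin phosphatase, differed by 0.44 ± 0.09. Olfr856-ps1 is a pseudogene of an olfactory receptor family, so its reads may belong in part to similar copies.

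Interferon genes had lower values with NMN than with parabiosis in all 3 interferon lists. Of 25 type I interferon response genes, 25 had lower values with NMN, 15 at p under 0.05, and 15 did not overlap, where the background is 5.02% of all genes at that p and 7.8% without overlap. The median difference was -0.99. Of 17 interferon gamma induced GTPases, 17 were lower with NMN, 6 at p under 0.05 and 10 without overlap, with a median of -2.15. Of 12 measured interferon gamma receptors, signalling factors and other targets, 12 were lower, 2 of them at p under 0.05, with a median of -1.25. For all genes tested the median was 0.026. In limma none of these genes passed the adjustment, whereas DESeq2 called Rsad2, Gbp2 and Gbp5 (adjusted p = 0.0122, 0.0284 and 0.0372). No gene of these 3 lists is X-linked.

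Promoter stretches of 7 interferon genes described below are shown because they hold the same element, so that they share it follows from the choice. They are 80-base stretches from RefSeq (GRCm38.p6), written 5′ to 3′ on the strand of the gene, and all end before the annotated start. Capitals mark every copy in the stretch of GAAA, any 2 bases and GAAA, the core of the interferon-stimulated response element, which reads TTTC, 2 bases, TTTC where it lies on the opposite strand. Gbp3 and Ifit1 hold 2 copies and Isg15 holds 3, some of them overlapping. Gbp2 lies at chr3:142620569-142620648, Gbp3 at chr3:142559964-142560043, Gbp5 at chr3:142496734-142496813 and Gbp7 at chr3:142530248-142530327, all on the plus strand. Ifit1 lies at chr19:34640750-34640829 on the plus strand, and Rsad2 at chr12:26456528-26456607 and Isg15 at chr4:156200852-156200931 on the minus strand.
Gbp2: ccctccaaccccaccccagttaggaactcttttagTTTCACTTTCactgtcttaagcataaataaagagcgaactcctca
Gbp3: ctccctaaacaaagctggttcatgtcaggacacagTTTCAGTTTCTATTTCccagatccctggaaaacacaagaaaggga
Gbp5: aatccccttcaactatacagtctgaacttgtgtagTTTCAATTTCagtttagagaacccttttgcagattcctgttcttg
Gbp7: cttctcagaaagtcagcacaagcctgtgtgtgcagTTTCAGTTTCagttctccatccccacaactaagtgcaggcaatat
Ifit1: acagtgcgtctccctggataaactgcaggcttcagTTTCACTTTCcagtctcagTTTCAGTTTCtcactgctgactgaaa
Rsad2: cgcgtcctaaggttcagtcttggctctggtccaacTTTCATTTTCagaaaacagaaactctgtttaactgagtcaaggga
Isg15: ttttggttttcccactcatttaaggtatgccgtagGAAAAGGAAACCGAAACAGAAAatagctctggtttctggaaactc
In windows from 250 bases before to 50 bases after the start, searched on both strands, this pair of GAAA was found in 9 of 10 interferon gamma induced GTPases with a window (90%) and in 11 of 18 type I interferon genes (61.1%). It was found in 3.76% of the 11052 compared genes with a window.

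Among the GTPases, Gbp2, a guanylate-binding protein that attacks pathogen vacuoles, had 39.0, 76.3 and 28.4 CPM with NMN and 420, 148 and 144 CPM with parabiosis. Gbp5, a relative that promotes inflammasome assembly, had 13.4, 25.5 and 9.34 against 114, 36.7 and 39.5 CPM. Gbp3 had 106, 128 and 83.0 against 381, 203 and 229 CPM, and Gbp7 had 61.3, 64.0 and 40.1 against 250, 123 and 97.0 CPM. In all 4 genes the groups did not overlap, and parabiosis library 1 was the highest of the 6. Gbp2 differed by -2.21 ± 0.70 (adjusted p = 0.352 in limma) and Gbp5 by -1.82 ± 0.57 (adjusted p = 0.347). Untreated old libraries 1 and 2 had 224 and 212 CPM of Gbp2 and library 3 had 56.6 CPM, so untreated tumours spanned both treatments.

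The type I response genes had a smaller median difference. Rsad2, the antiviral enzyme viperin, had 27.3, 24.3 and 21.8 CPM with NMN and 63.6, 37.6 and 55.9 CPM with parabiosis, a difference of -1.04 ± 0.26. Ifit2, an inhibitor of translation of viral RNA, had 39.3, 47.8 and 37.2 against 112, 72.3 and 63.5 CPM. Ifit1 had 39.5, 43.1 and 21.2 against 87.7, 47.6 and 91.5 CPM, and Isg15, a ubiquitin-like modifier, had 13.7, 11.2 and 8.13 against 36.0, 15.4 and 28.9 CPM. Rtp4 had 23.8, 28.4 and 19.6 against 60.6, 29.6 and 40.4 CPM. Parabiosis library 2 came closest to the NMN values in Ifit1, Isg15 and Rtp4.

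Among signalling genes and other interferon gamma targets, Cxcl10, a chemokine for T cells, had 8.30, 36.0 and 9.76 CPM with NMN and 112, 56.6 and 56.1 CPM with parabiosis. Irf1, a transcription factor of the pathway, had 16.2, 32.4 and 14.7 against 132, 55.6 and 27.9 CPM, with overlap. Cd274, the checkpoint ligand PD-L1, had 9.82, 15.7 and 8.22 against 50.9, 21.2 and 15.8 CPM. The groups met without overlap in Cd274, which differed by -1.18 ± 0.55.

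The list score, how far its genes lie on average from their 12-library mean in log2 units, shows how the tumours differ. For the GTPases it was -1.39, -0.067 and -1.82 with NMN, 2.08, 0.60 and 0.099 with parabiosis and 1.15, 1.19 and -1.35 in untreated old tumours. For the type I genes it was -0.53, -0.22 and -0.72 with NMN, 0.95, -0.039 and 0.42 with parabiosis and 0.50, 0.45 and -0.40 in untreated old tumours. Among the NMN libraries, library 2 scored highest in both lists, nearest to parabiosis library 3 for the GTPases and to parabiosis library 2 for the type I genes. Without parabiosis library 1 the GTPase median was -1.51 and the type I median was -0.75. The counts at p under 0.05 rested on single libraries. Of the 25 type I genes, 1 had that p without parabiosis library 1, 4 without parabiosis library 3, 17 without parabiosis library 2, and 8, 13 and 3 without NMN libraries 1, 2 and 3. Of the 17 GTPases it was 2, 5 and 10 without parabiosis libraries 1, 2 and 3, and 3, 14 and 2 without NMN libraries 1, 2 and 3. For the interferon gamma signalling list the median was -0.66 without parabiosis library 1. Its count of 2 was 0, 1 and 6 without parabiosis libraries 1, 2 and 3, and 0, 3 and 0 without NMN libraries 1, 2 and 3. T cell genes were also highest in parabiosis library 1: the summed level of 17 T and NK cell genes was 37.2 CPM there, 10.1 to 12.5 CPM in the other parabiosis libraries and 6.65 to 12.4 CPM with NMN. Cd3e, a subunit of the T cell receptor complex, was at 3.70 CPM in it. The part of these cells in the interferon difference was not tested, and the 3 T and NK cell genes that passed the filter had 0 members at p under 0.05.

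Antigen presentation genes followed the interferon genes with a wider spread. Of 17 MHC class I presentation genes, 16 were lower with NMN, 1 of them at p under 0.05, and the median was -0.97. Without parabiosis library 1 the median was -0.60 and 0 genes had that p, as without NMN library 1 or 3, and there were 2 without NMN library 2 and 3 without parabiosis library 3. Of 9 MHC class II genes 9 were lower, 0 at p under 0.05, or 3 without parabiosis library 3, with a median of -1.85. B2m, the light chain of class I molecules, had 340, 549 and 197 CPM with NMN and 1236, 812 and 399 CPM with parabiosis. Psme2, an activator of the proteasome, had 26.9, 40.4 and 30.2 against 111, 53.1 and 44.4 CPM and did not overlap. H2-Ab1, a class II chain, had 8.87, 53.6 and 2.88 against 218, 81.0 and 21.1 CPM, and Cd74, the class II chaperone, had 29.9, 135 and 8.55 against 533, 225 and 54.2 CPM. In both class II genes NMN library 2 lay above parabiosis library 3, and the differences of -2.52 ± 1.67 and -2.46 ± 1.80 were within the spread. Similar class I genes share reads, so their division is uncertain.

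**Figure D4:**
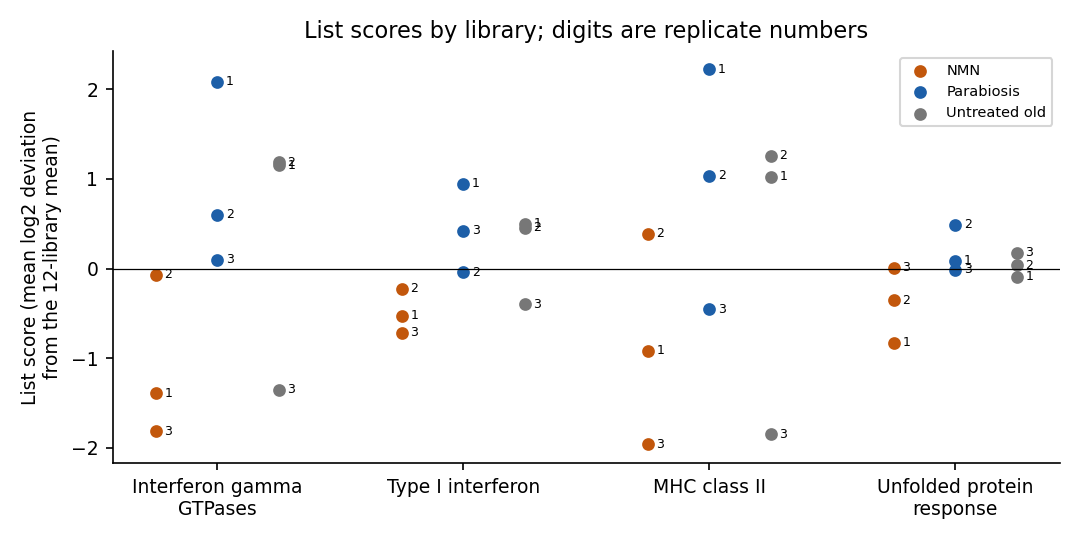
List scores (average log2 distance of the genes from their 12-library mean) of 4 gene lists in each NMN, parabiosis and untreated old library, with the replicate number beside each point. In both interferon lists the NMN and parabiosis points do not overlap, parabiosis library 1 is highest at 2.08 for the GTPases, and untreated old library 3 lies at -1.35.

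Chemokine and myeloid genes pointed the same way in part. Of 15 chemokines and receptors, 12 were lower with NMN, 5 at p under 0.05, with a median of -0.62, and the count was 1 without NMN library 1, where the median was -0.39, and 2 without parabiosis library 1 or 2. Ccl2, which recruits monocytes, had 0.74, 0.97 and 1.04 CPM with NMN and 3.74, 2.40 and 2.19 CPM with parabiosis, a difference of -0.96 ± 0.22. Ccr2, the receptor of Ccl2, had 0.78, 1.91 and 2.92 against 11.5, 11.4 and 2.42 CPM and overlapped through parabiosis library 3. Of 14 monocyte and macrophage genes 9 were lower, 3 at p under 0.05, with a median of -0.63. The median was -0.27 without parabiosis library 1 and -0.28 without NMN library 1, with 1 and 0 genes at that p. Plac8, a gene of inflammatory monocytes, had 0.78, 1.32 and 1.13 CPM with NMN and 7.94, 15.5 and 11.3 CPM with parabiosis, and differed by -2.56 ± 0.99. Untreated old tumours spanned 1.02 to 31.3 CPM of Plac8. Cd68, a lysosomal protein of phagocytes, had 17.9, 25.05 and 21.4 against 40.8, 29.9 and 30.5 CPM.

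Resident microglia showed no such order. Of 12 homeostatic microglial genes 5 were lower with NMN and 7 higher, 0 at p under 0.05, with a median of 0.0051. P2ry12, a purinergic receptor of resting microglia, had 13.6, 13.6 and 10.3 CPM with NMN and 10.8, 8.14 and 12.2 CPM with parabiosis. Of 16 genes of disease-associated glia and complement, 15 were lower with NMN and 1 of them, Clec7a, at p under 0.05. Clec7a, a fungal glucan receptor, had 16.1, 27.0 and 10.8 against 80.9, 48.2 and 25.5 CPM.

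Chaperones of the endoplasmic reticulum had lower values with NMN. Of 20 genes of the unfolded protein response and endoplasmic reticulum folding, 19 were lower, with a median of -0.69. Of these, 11 were lower at p under 0.05 and 8 without overlap. Over all genes 5.02% were lower at that p and 7.8% were lower without overlap. Hspa5, the master chaperone BiP, had 345, 439 and 691 CPM with NMN and 698, 969 and 696 CPM with parabiosis. Hsp90b1, the chaperone GRP94, had 327, 502 and 645 against 829, 984 and 652 CPM. In both genes NMN library 3 nearly met the lowest parabiosis libraries. Ddit3, the stress factor CHOP, had 8.96, 15.2 and 14.6 against 18.2, 26.03 and 18.6 CPM and differed by -0.67 ± 0.22. Manf, a secreted stress protein, had 47.9, 55.6 and 97.3 against 103, 174 and 86.9 CPM and overlapped. Creld2, another secreted stress protein, had 11.5, 24.5 and 31.7 against 42.8, 54.5 and 33.5 CPM. The list score was lowest in NMN library 1, and without that library the median was -0.39 and 2 genes had p under 0.05, and without NMN library 2 it was 7. Without parabiosis library 2, the highest by that score, 0 genes had that p.

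The promoters of Hspa5 (chr2:34771994-34772073, plus strand), Hsp90b1 (chr10:86705608-86705687, minus strand) and Creld2 (chr15:88819489-88819568, plus strand) are shown because they hold the endoplasmic reticulum stress element, CCAAT followed after 9 bases by CCACG, in capitals (RefSeq, GRCm38.p6). In Creld2 it lies on the opposite strand. Hsp90b1 has a further copy outside the stretch shown.
Hspa5: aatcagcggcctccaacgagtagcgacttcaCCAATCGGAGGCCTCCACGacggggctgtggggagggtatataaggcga
Hsp90b1: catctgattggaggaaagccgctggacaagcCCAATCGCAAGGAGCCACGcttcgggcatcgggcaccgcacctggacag
Creld2: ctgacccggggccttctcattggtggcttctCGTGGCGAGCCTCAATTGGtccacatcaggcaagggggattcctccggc
This element, searched for after the list's values had been seen, was found in 7 of 17 list genes with a window (41.2%) and in 0.172% of the compared genes. CCAAT alone, which the element contains, was found in 88.2% of the list and in 42.7% of the compared genes.

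Cytosolic heat shock genes were less uniform. Of 15 genes 12 were lower with NMN and 1, Cryab, at p under 0.05. Cryab, a small heat shock protein of astrocytes and glioma, had 37.8, 29.95 and 25.5 CPM with NMN and 53.1, 50.4 and 49.5 CPM with parabiosis. Of 14 genes of the NRF2 antioxidant response 11 were lower, 3 at p under 0.05. They were Hmox1, Gclm and the X-linked G6pdx. Gclm, a subunit of the enzyme that starts glutathione synthesis, had 26.1, 22.8 and 23.6 against 28.5, 39.1 and 29.5 CPM. Hmox1, which breaks down haem, had 17.5, 16.8 and 28.4 against 46.5, 132 and 27.1 CPM and overlapped.

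**Figure D5:**
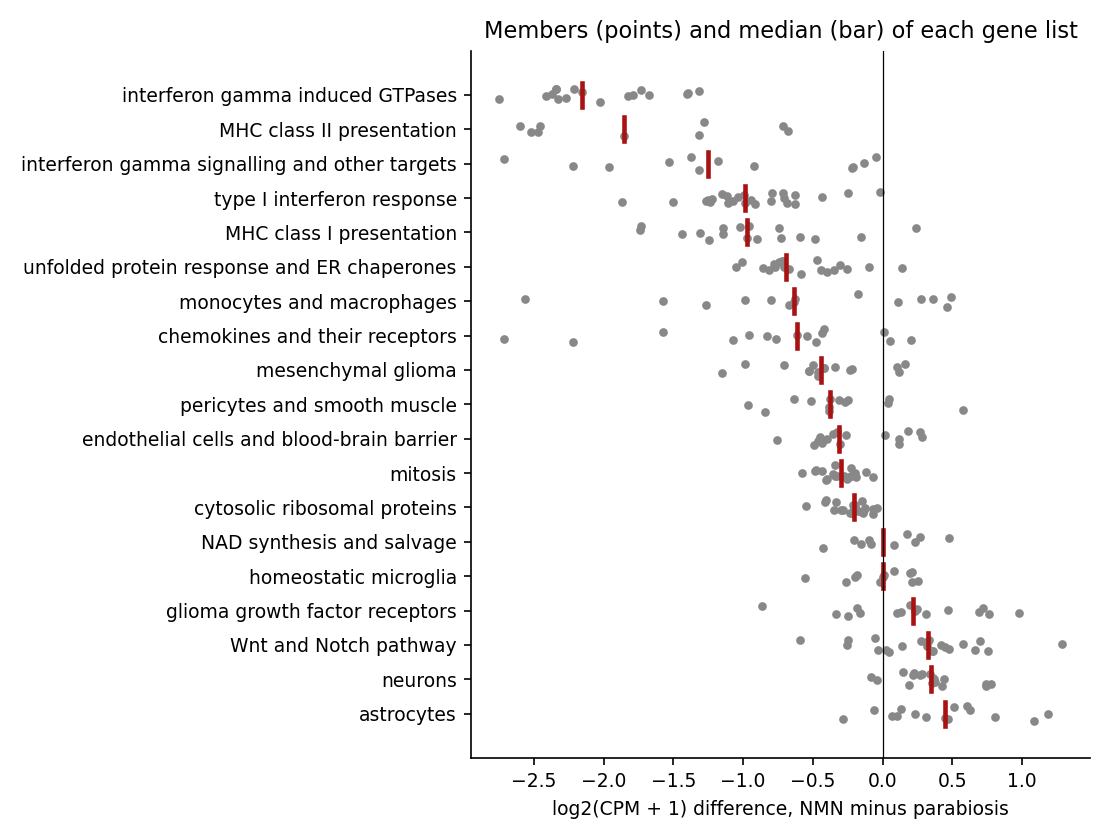
Log2(CPM + 1) difference, NMN minus parabiosis, of the measured members (points) of 19 gene lists with each list's median (bar). The interferon gamma GTPases have the lowest median at -2.15, homeostatic microglia and NAD synthesis lie near 0, and astrocytes have the highest median at 0.45.

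Wnt and Notch genes mostly had higher values with NMN, and growth factor receptors were divided. Of 22 Wnt and Notch pathway genes 17 were higher, 5 at p under 0.05 and 6 without overlap, where the background is 4.73% of all genes at that p and 6.95% without overlap. The median was 0.33. It was 0.19 without parabiosis library 2 and 0.21 without NMN library 2, with 2 and 3 genes at that p. Besides Wnt3, Dll1, a Notch ligand, had 48.1, 61.5 and 36.3 CPM with NMN and 29.3, 29.4 and 24.9 CPM with parabiosis. Notch1, its receptor, had 428, 462 and 374 against 372, 297 and 341 CPM, and Axin2, a target and inhibitor of Wnt signalling, had 52.0, 63.7 and 45.8 against 42.6, 38.1 and 38.1 CPM. The gaps were narrow in Notch1 and Axin2. Of 16 growth factor receptors of glioma 11 were higher with NMN, 3 at p under 0.05, with a median of 0.22, and 3 lay without overlap in each direction. Erbb2 had 10.4, 20.1 and 13.97 against 5.32, 6.14 and 9.41 CPM, a difference of 0.98 ± 0.26. Igf1r, the receptor of insulin-like growth factor, had 161, 188 and 178 against 116, 112 and 154 CPM, and Fgfr2 had 31.4, 52.6 and 41.3 against 17.3, 24.998 and 30.4 CPM. Axl, a receptor tyrosine kinase, was among the 3 receptors lower without overlap, with 63.9, 73.9 and 65.0 against 93.2, 85.7 and 78.1 CPM. Of all genes 7.8% lay lower without overlap. In limma no member of either list passed the adjustment, whereas DESeq2 called Wnt3 (adjusted p = 1.92e-08) and Erbb2 (adjusted p = 0.0274).

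Matrix, mesenchymal and vessel genes were lower with NMN in part. For the 21 matrix genes, 16 of them lower, the median was -0.082, or -0.050 without the X-linked members, and with each library left out in turn the median was -0.32 to -0.16. Of 16 collagens 9 were lower, with a median of -0.30 that was -0.023 without parabiosis library 2, -0.18 without NMN library 2, -0.063 without NMN library 1, -0.085 without parabiosis library 1 and -0.51 without NMN library 3. Tnc, the matrix protein tenascin C, had 8.46, 5.80 and 14.1 CPM with NMN and 28.2, 44.7 and 22.8 CPM with parabiosis, a difference of -1.68 ± 0.39. Mmp2, a gelatinase, had 11.3, 10.9 and 24.1 against 55.1, 31.4 and 30.3 CPM. Bgn, an X-linked proteoglycan, had 51.9, 68.5 and 42.5 against 110, 124 and 161 CPM. Of the matrix genes 4 were lower at p under 0.05 (2 without NMN library 1), namely Tnc, Mmp2, Bgn and the X-linked inhibitor Timp1. Lox, which crosslinks collagen, was higher at that p with 1.61, 2.49 and 7.34 against 0.81, 1.10 and 0.48 CPM. Of the collagens 0 passed that p.

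Of 16 mesenchymal glioma genes 13 were lower with NMN, 4 at p under 0.05, with a median of -0.44. The median was -0.27 without NMN library 1, and 7 genes had that p without NMN library 3. Lgals3, the lectin galectin 3, had 8.46, 19.95 and 13.1 against 40.8, 31.4 and 21.6 CPM, and Tnfrsf1a, a receptor of tumour necrosis factor, had 22.7, 22.1 and 24.3 against 33.6, 34.1 and 28.6 CPM. Stat3, a transcription factor of the mesenchymal state, had 163, 153 and 177 against 205, 191 and 185 CPM, a small gap without overlap. Of 16 endothelial genes 10 were lower, 0 at p under 0.05 and 7 without overlap, where 7.8% of all genes lay lower without overlap. Among the 7 was the growth factor receptor Kdr with 10.7, 20.8 and 14.8 against 26.2, 30.3 and 21.9 CPM. Of 13 pericyte and smooth muscle genes 10 were lower and 2 of them, Acta2 and Tagln, at p under 0.05. Acta2, smooth muscle actin, had 4.99, 4.71 and 4.92 against 8.83, 14.1 and 9.08 CPM. Notch3, a receptor of pericytes, went the other way with 57.0, 116 and 54.3 against 45.5, 46.5 and 50.5 CPM.

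Brain cell markers were higher with NMN by their medians, but single libraries set these values. Of 18 neuronal genes 16 were higher with NMN, 0 at p under 0.05, with a median of 0.35, and without NMN library 1 the median was -0.10. Snap25, a synaptic fusion protein, had 998, 345 and 313 CPM with NMN and 322, 288 and 667 CPM with parabiosis. Of 15 astrocyte genes 13 were higher, 3 at p under 0.05, Aldoc and Slc6a11 among them, and 0 without overlap, with a median of 0.45. That median was 0.14 without NMN library 1 or parabiosis library 2 and 0.28 without parabiosis library 1, and 7 genes had that p without parabiosis library 3. Slc6a11, an astrocytic transporter of GABA, had 37.9, 74.4 and 67.4 against 17.9, 23.3 and 44.5 CPM. Gfap, the intermediate filament of reactive astrocytes, went the other way with 998, 1138 and 1268 against 825, 1625 and 1930 CPM. Myelin genes had a median of 0.21, and oligodendrocyte precursor and proneural genes 0.022. Striatal projection neuron genes had a median of 0.40, receptors of GABA and glutamate 0.38 and ion channels 0.35, with 0, 0 and 1 members at p under 0.05.

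Cell cycle genes leaned lower with NMN within the spread. All 20 mitosis genes had lower values with NMN, 0 at p under 0.05 and 0 without overlap, with a median of -0.30. Without NMN library 1 that median was -0.049. Mki67, a marker of dividing cells, had 292, 548 and 397 CPM with NMN and 713, 549 and 328 CPM with parabiosis. DNA replication genes had a median of -0.31 and 1 of 20 at p under 0.05 in each direction, and without NMN library 1 the median was -0.00076. The medians were also moved by other libraries. For mitosis it was -0.12, -0.52 and -0.49 without parabiosis library 1, parabiosis library 3 and NMN library 2, and for replication it was -0.54 and -0.57 without the latter 2. Of 17 cell cycle inhibitors and senescence factors 13 were lower and 4 higher with NMN, with 2 lower and 1 higher at p under 0.05. Over all genes 5.02% were lower and 4.73% higher at that p. The list median was -0.27, or -0.11 without NMN library 1. Cdkn2a, the locus of p16 and p19, had 22.04, 13.9 and 24.9 against 36.2, 37.2 and 29.2 CPM and differed by -0.76 ± 0.23 (adjusted p = 0.336 in limma). Plau, the protease urokinase, had 3.47, 6.88 and 4.59 against 15.1, 11.7 and 9.46 CPM, whereas Cdkn1a, the inhibitor p21, overlapped at 52.9, 21.7 and 34.4 against 24.1, 29.8 and 25.1 CPM. All 22 cytosolic ribosomal protein genes were lower with NMN, with a median of -0.20, and the 1 at p under 0.05 was the X-linked Rps4x. That median was -0.046 without NMN library 1, -0.43 without NMN library 2, -0.32 without parabiosis library 3 and -0.13 without parabiosis library 2. Without NMN library 2, 11 of these genes had that p, and without parabiosis library 3 it was 3.

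The genes of NAD metabolism, the pathway that NMN feeds, lay on both sides. Of 10 measured genes of NAD synthesis and salvage 5 were higher and 5 lower with NMN, 0 at p under 0.05 and 1 higher without overlap. That gene passed the filter through the NMN libraries alone, so its lack of overlap followed from the filter. Over all genes 6.95% lay higher without overlap. Nampt, which makes NMN from nicotinamide, had 75.2, 116 and 91.7 CPM with NMN and 147, 124 and 108 CPM with parabiosis, a difference of -0.43 ± 0.20 with overlap. Nmrk1, which makes NMN from nicotinamide riboside, had 59.6, 69.7 and 79.6 against 64.3, 56.5 and 55.3 CPM. Of 14 NAD-consuming enzymes 2 were lower at p under 0.05, Parp9 and Parp3, with a list median of 0.017. Without overlap 3 of the 14 were higher and 2 lower, where 14.7% of all genes do not overlap. The count at p under 0.05 was 0 without NMN library 1 or parabiosis library 1 and 1 without parabiosis library 2. Parp9, which interferon also induces, had 25.3, 35.4 and 21.2 against 84.3, 40.9 and 43.5 CPM, and Parp14, a relative, had 27.7, 57.8 and 30.4 against 187, 69.7 and 64.5 CPM. Sarm1, the NAD-cleaving enzyme of axons, had 20.9, 17.0 and 16.7 against 15.9, 9.98 and 16.0 CPM.

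Respiratory and metabolic genes had small median differences. Of 22 oxidative phosphorylation genes 16 were lower with NMN and 3 at p under 0.05, the X-linked Cox7b and Ndufa1 and the autosomal Cox5a, with a median of -0.086. Without NMN library 1, 5 genes had that p. Cox5a had 41.2, 45.1 and 38.0 CPM with NMN and 52.97, 46.9 and 51.0 CPM with parabiosis. Of 19 glycolysis and hypoxia genes 17 were lower with NMN, 1 at p under 0.05, the X-linked Pgk1, and 5 without overlap, where 7.8% of all genes lay lower without overlap. The median was -0.13, and -0.26, -0.24, -0.22 and -0.20 without parabiosis library 3, parabiosis library 1, NMN library 1 and NMN library 2. Eno1, the glycolytic enzyme enolase, had 245, 257 and 257 against 338, 370 and 310 CPM. Cholesterol and fatty acid synthesis genes had a median of 0.13 with 0 of 20 at that p, and the median was -0.055 without NMN library 1 and 0.32 without NMN library 2. The p53 targets had a median of 0.047, with Perp, a desmosomal gene, higher at 2.19, 2.18 and 4.96 against 0.39, 0.50 and 1.76 CPM and Bax, a death effector, lower at 20.1, 21.6 and 24.98 against 29.6, 32.6 and 24.9 CPM. Immediate early genes had a median of -0.23 and 2 of 16 lower at that p, and that median was 0.014 without parabiosis library 1.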

How the data were processed

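RNA was ribosome-depleted and sequenced as stranded paired ends, per the labels' protocols. Alignment and estimation software named by the submitters' processing notes was Bowtie2 2.1.0 and RSEM 1.2.15, beside FastQC and edgeR, and the builds named there were mm10 and GRCm38. The authors deposited 1 table of TMM-scaled CPM values, in which 27 symbols had become dates. The sources used here do not state whether counting used strand, so antisense and overlapping genes are uncertain. Within each library 100% of values were whole multiples of the value of 1 read, at a tolerance of 0.01. Count tests on these reads called 0 genes (edgeR 4.0.16) and 231 (DESeq2 1.42.0, size factors of its own, 24 adjusted p values not available). A count of 3 reads equals 0.100 to 0.143 CPM in these 6 libraries, for counting error only.

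The main test was a limma fit (version 3.58.1, in R 4.3.3) to log2(CPM + 1), with the prior variance following the mean level. It used all 12 libraries, 1 mean per group and Benjamini-Hochberg adjustment over the 14883 genes, two-sided, with genes called under 0.05. Each library was treated as 1 mouse. The code was tested on simulated data.

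The genes, the 45 gene lists (722 of 728 entries had a row, 6 by an older symbol) and the tests were chosen with earlier results of these data known. Named genes were, in each direction, the 12 with the smallest unadjusted p among named genes without overlap and with a mean of at least 2 CPM in the higher group, since 0 were called. Up to 4 members per list by smallest p and a few fixed genes were also named, and a few genes that the rule names are not reported here. Others, such as Isg15, Hspa5, Creld2, B2m, Cd74, Bgn, Cd3e, S100a8, S100a9 and the X-linked brain, enzyme and Y-partner genes, were chosen after their values were seen. Chromosomes and promoters came from RefSeq (GRCm38.p6).

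Same-numbered NMN and parabiosis libraries deviated from their group means with correlations of -0.26 to 0.40, and 1 of 3 exceeded 0.1, so the numbers were not taken as pairs. Alternatives covered pseudocounts, filters, the libraries fitted, normalization, tests, a brain marker covariate, a replicate block and leaving out each library.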

Additional observations from a re-analysis of the deposited data

How the results depend on the processing

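The count of called genes was 0 in every alternative except DESeq2, with 231, and a fit without the 3 untreated libraries with Xist near 0, chosen after seeing the data, with 2 (Tspan6 and Plac8, both lower with NMN). Leaving out a library in turn gave 913 to 2591 genes at p under 0.05, against 1451, and 2858 to 6126 genes without overlap, against 2195. Both highest counts came without parabiosis library 3 and the lowest p count without parabiosis library 1. Fewer libraries make no overlap more likely by construction. The other alternatives gave 1166 to 1875 genes at p under 0.05. With the replicate block 0 genes were called and 1680 had p under 0.05, where the smallest adjusted p was 0.216. No overlap has no value for pseudocounts, the block, the covariate or the fitted libraries, which leave the order of values as it is. The X-linked median stayed between -0.16 and -0.31 and the X-linked count at p under 0.05 between 156 and 225, against 194. All 24 named genes kept their direction. With a library left out, list counts lower at p under 0.05 were 0 to 2 for disease-associated glia (1 with all libraries), 0 to 3 for heat shock chaperones (1), 1 to 3 for pericytes and smooth muscle (2) and 0 to 3 for immediate early genes (2). List medians were 0.12 to 0.75 for striatal projection neurons, 0.056 to 0.87 for GABA and glutamate receptors, 0.043 to 0.67 for ion channels, 0.0061 to 0.30 for myelin, -0.18 to 0.25 for oligodendrocyte precursors, -0.095 to 0.11 for homeostatic microglia and -0.027 to 0.052 for p53 targets.

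Named genes that reversed were these, and the cause was not tested. Leaving out a library in turn gave -0.47 to 0.41 for Kdm5d, -0.77 to 0.88 for Hbb-bs, -0.27 to 0.64 for Snap25, -0.50 to 0.18 for Ddx3y, -0.23 to 0.47 for Eif2s3y, -0.050 to 1.26 for Hba-a1, -0.36 to 0.28 for Cd8a and -0.55 to 0.061 for Cd4. Kdm5d was also -0.042 with edgeR and -0.030 with DESeq2, Hbb-bs -0.74 with a pseudocount of 0.1 and -0.17 with the covariate, and Snap25 -0.22 with the covariate.

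Depth limits genes near 1 CPM, such as Lox and Ccl2, where 3 reads are 0.100 to 0.143 CPM.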

Other observations

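NMN library 3 held choroid plexus genes that the other 5 libraries had at low levels. Ttr, the thyroid hormone carrier made by choroid plexus, had 841 CPM there, 3.10 and 0.62 CPM in the other NMN libraries and at most 1.38 CPM with parabiosis. The summed level of 12 choroid plexus and ependymal genes was 1524 CPM in that library and 93.7 to 173 CPM in the other 5. The list median of 0.94 became 0.14 without that library. S100a8 and S100a9, neutrophil proteins, were at 3.84 and 6.59 CPM there and at most 0.19 CPM in the other 5. Hba-a1, a haemoglobin chain, was at 146 CPM there and 22.99 to 30.5 CPM in the others.

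The lists for neutrophils, platelets, B and plasma cells and muscle and skin had 2, 2, 1 and 2 measured members with 0 at p under 0.05. Of 9 measured red blood cell genes 8 were higher with NMN, 0 at that p. Parabiosis library 1, with the most T cell RNA, also had the highest level of Igj, the joining chain of antibodies, at 9.72 CPM against 0.57 to 1.87 CPM in the other 5.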
